A study of Mus musculus with 12 samples.

Results

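The genes described are 9 members of the BCL2 family that govern mitochondrial apoptosis, Bcl2, Bcl2l1, Mcl1, Bax, Bak1, Bcl2l11, Bbc3, Pmaip1 and Bmf, and the caspase gene Casp12. They were taken as a named list of 10 genes out of 35214 in the deposited files, and all 10 had enough reads to be tested. The list was chosen with earlier results of these data known. The cells were Ocy454, a single mouse line of maturing osteoblast and osteocyte character that grows at 33C and differentiates at 37C. After 5 days of differentiation the cultures received BGJ398, an inhibitor of the FGF receptor kinases, at 200 nM or its vehicle DMSO for 1 h, and then medium with or without fibroblast growth factor 2 (FGF2) at 2 ng/mL for 48 h, up to lysis on day 7. The 4 groups of 3 libraries are named BGJ398+FGF2 (inhibitor and FGF2), DMSO+FGF2 (vehicle and FGF2), BGJ398 (inhibitor, no added FGF2) and DMSO (vehicle, no added FGF2). The series title links FGF receptor signaling in such cells to osteocyte survival, and the comparisons ask how far the transcripts of these apoptosis genes moved with FGF2 and with inhibition of its receptors.

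BCL2-family proteins decide whether the outer mitochondrial membrane is opened. The survival proteins BCL2, BCL-XL (gene Bcl2l1) and MCL1 hold the pore-forming effectors BAX and BAK in check, and the BH3-only proteins BIM (Bcl2l11), PUMA (Bbc3), NOXA (Pmaip1) and BMF bind the survival proteins or activate the effectors. Once the membrane is open, cytochrome c reaches the cytosol and caspases are activated. Osteoblasts and osteocytes depend on growth factors and on attachment to matrix for survival, and much of the control over these proteins is exerted on protein stability, phosphorylation and location, which RNA does not show.

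Promoter sequences are shown for the 4 genes that passed the test in at least 1 comparison and whose RefSeq start lay within 50 bases of the start of their leading transcript, since these are genes whose RNA differed between groups. Each is 200 bases, from 250 to 51 bases before the RefSeq start (build GRCm38.p6), written 5′ to 3′ on the strand of the gene. Capitals mark matches to any of the 13 motifs searched on both strands.
Bcl2, chr1:106714341-106714540, minus strand: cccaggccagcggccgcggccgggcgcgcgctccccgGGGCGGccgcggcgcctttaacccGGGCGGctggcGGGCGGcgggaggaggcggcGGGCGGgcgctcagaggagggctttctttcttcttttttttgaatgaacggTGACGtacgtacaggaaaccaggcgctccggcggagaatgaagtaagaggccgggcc
Bcl2l1, chr2:152831779-152831978, minus strand: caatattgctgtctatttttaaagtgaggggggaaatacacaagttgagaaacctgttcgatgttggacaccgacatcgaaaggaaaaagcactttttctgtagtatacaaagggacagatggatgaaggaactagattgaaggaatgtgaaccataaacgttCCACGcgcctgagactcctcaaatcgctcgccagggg
Bmf, chr2:118549737-118549936, minus strand: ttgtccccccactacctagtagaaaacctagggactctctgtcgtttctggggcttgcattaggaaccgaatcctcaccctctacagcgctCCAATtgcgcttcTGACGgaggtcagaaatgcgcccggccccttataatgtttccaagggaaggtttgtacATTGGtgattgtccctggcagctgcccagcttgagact
Casp12, chr9:5345226-5345425, plus strand: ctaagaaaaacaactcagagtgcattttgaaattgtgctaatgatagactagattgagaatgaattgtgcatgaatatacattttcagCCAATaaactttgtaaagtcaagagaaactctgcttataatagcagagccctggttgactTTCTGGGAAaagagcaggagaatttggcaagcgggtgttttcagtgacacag

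The 4 windows differed in composition. Over 32851 RefSeq mouse promoter windows of the same length the median GC content was 51.5%, and it was 71.0% for Bcl2, 44.0% for Bcl2l1, 53% for Bmf and 37.5% for Casp12. The Bcl2 window held 28 CpG dinucleotides and 4 GC boxes (GGGCGG), a motif found in 24.6% of all windows, and the Casp12 window held 1 CpG and no GC box. A CCAAT box (CCAAT) was matched once in Casp12 and 2 times in Bmf, of which 1 is on the opposite strand and reads ATTGG here, against 28.4% of windows with a match. The Casp12 window also held a STAT-type motif (TTCNNNGAA) 102 bases before the start, a match present in 5.76% of windows. Bcl2 and Bmf each held 1 short cyclic AMP element (TGACG, in 12.7% of windows), and Bcl2l1 held 1 CCACG (22.9%), the short part of the endoplasmic reticulum stress element. None of the 4 windows matched the full cyclic AMP element (TGACGTCA, in 0.828% of windows, which contains TGACG), the AP-1 site (TGANTCA, 5.57%), the ATF4 and C/EBP composite site (TGATGNAA, 2.71%), the FOXO site (GTAAACA, 2.58%), the ETS core (CCGGAA, 8.03%), the E-box (CACGTG, 4.34%), the TATA box (TATAAA, 9.14%) or the interferon-stimulated element (2.40%). These matches describe letters in a window and not bound sites. Each window belongs to the leading transcript of its gene, and other starts are not shown. In level per transcript length (TPM), the leading Bcl2l1-201 averaged 8.80 in DMSO+FGF2 and 11.1 in DMSO, and Bcl2l1-202 averaged 7.82 and 3.67. The leading Casp12-201 averaged 16.9 TPM in DMSO+FGF2 and 16.1 TPM in DMSO, and Casp12-204 averaged 7.95 and 2.12 TPM. The windows stop 51 bases before the start, so a TATA box nearer to the start could not be found.

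Libraries held 18951710 to 27716975 reads. Of the 7 markers of the osteoblast character named in the series title, Col1a1, Col1a2, Runx2 and Sp7 had the most reads. Over the 12 libraries Alpl had 3195 reads, Ibsp had 279 and Bglap had 167, and in DMSO+FGF2 Ibsp had 1 read. Of the 6 osteocyte markers 4 were almost unread: over the 12 libraries Dmp1 had 26 reads, Fgf23 had 6, and both Mepe and Sost had 0. Phex had 116 reads and Pdpn, a gene of early osteocytes, had 8195. Pdpn was at 28.9 ± 3.29 CPM in BGJ398+FGF2, 38.9 ± 0.717 CPM in DMSO+FGF2, 28.2 ± 0.754 CPM in BGJ398 and 26.98 ± 1.75 CPM in DMSO (SD, n = 3 each), and it passed as higher with FGF2 in DMSO (edgeR adjusted p = 0.000581) and as lower with BGJ398 in the presence of FGF2 (0.00189). It carried nearly all of the summed level of the osteocyte markers, which was 30.6 to 33.4 TPM in BGJ398+FGF2, 42.0 to 45.1 TPM in DMSO+FGF2, 31.3 to 34.96 TPM in BGJ398 and 29.1 to 34.8 TPM in DMSO. The summed level of the 7 osteoblast markers was 5335 to 6188 TPM in BGJ398+FGF2, 3210 to 3513 TPM in DMSO+FGF2, 5628 to 5928 TPM in BGJ398 and 5272 to 5479 TPM in DMSO. Col1a1 and Col1a2 carried nearly all of it, at means of 2623 and 2660 TPM in DMSO. Bglap, with few reads, differed from the sum, at 5.18 ± 1.78 TPM in BGJ398+FGF2, 3.24 ± 0.210 TPM in DMSO+FGF2, 4.98 ± 1.93 TPM in BGJ398 and 10.2 ± 4.48 TPM in DMSO. All 7 of 7 passed as lower in DMSO+FGF2 than in DMSO, against 13.4% of all genes. The 5 macrophage markers summed to 6.09 to 7.74 TPM in BGJ398+FGF2, 10.3 to 11.5 TPM in DMSO+FGF2, 5.51 to 8.22 TPM in BGJ398 and 3.98 to 5.99 TPM in DMSO. This sum followed Cd68, a lysosomal protein, at 4.27 ± 0.579 TPM in BGJ398+FGF2, 10.3 ± 0.607 TPM in DMSO+FGF2, 4.88 ± 1.90 TPM in BGJ398 and 2.92 ± 1.09 TPM in DMSO, the 1 of the 3 testable macrophage markers that passed as higher in DMSO+FGF2 than in DMSO. The other 2 had lower means in DMSO+FGF2 than in DMSO and did not pass: Lyz2 was at 0.396 ± 0.105 CPM in DMSO+FGF2 and 0.915 ± 0.136 CPM in DMSO, and Csf1r at 0.316 ± 0.278 CPM in DMSO+FGF2 and 0.561 ± 0.329 CPM in DMSO. With BGJ398 in the presence of FGF2, Cd68 passed as lower and Lyz2 as higher. The defining Ptprc and Adgre1 had 2 and 0 reads over the 12 libraries. No endothelial or adipocyte marker and only Des of the 4 muscle markers had enough reads to test, and Des did not pass. Mitochondrially encoded genes took 1.87% to 2.11% of reads in BGJ398+FGF2, 1.76% to 1.78% in DMSO+FGF2, 1.70% to 1.92% in BGJ398 and 1.70% to 1.83% in DMSO. The part of these differences in the results below was not tested, and in RNA from whole cultures fewer cells of a type and less RNA per cell cannot be told apart.

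In 3 libraries a shared deviation from the group means stood out. Replicate 2 of BGJ398+FGF2, replicate 2 of DMSO+FGF2 and replicate 1 of BGJ398 lay at 27.98, 14.59 and 13.28 on the leading axis of within-group variation, and the other 9 libraries lay between −16.06 and 2.164. In each of these 3 libraries Bax, Bak1 and Bbc3 were at their highest in the group and Bcl2l11 at its lowest. Results for these 4 genes are therefore given with and without the 3 libraries, and for other genes where a call changed. This choice was made after the values were seen. Leaving out libraries that hold the extreme values of a gene narrows its spread within groups. The adjusted p values without the 3 libraries are therefore, for every gene, a description and not support for a change.

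Levels per transcript length (TPM) spanned a wide range within the family. Bax was the most abundant at 185 ± 12.6 TPM (SD over 12 libraries), followed by Mcl1 at 104 ± 4.99 TPM and Bak1 at 68.7 ± 7.83 TPM, and the library ranges of these 3 genes did not overlap. A middle group held Casp12 at 24.7 ± 4.31 TPM, Bcl2l11 at 22.3 ± 2.80 TPM, Bbc3 at 20.5 ± 2.18 TPM and Bcl2l1 at 17.5 ± 1.73 TPM, and neighbors in that order overlapped. The lowest were Pmaip1 at 8.80 ± 1.35 TPM, Bcl2 at 7.51 ± 1.07 TPM and Bmf at 6.82 ± 1.03 TPM, which also overlapped one another. Thus Bax transcripts outnumbered Bcl2 transcripts in every library, by 19.7 to 34.3 times on the TPM scale. Read totals over the 12 libraries ran from 2926 for Pmaip1 to 56081 for Mcl1.

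**Figure D1:**
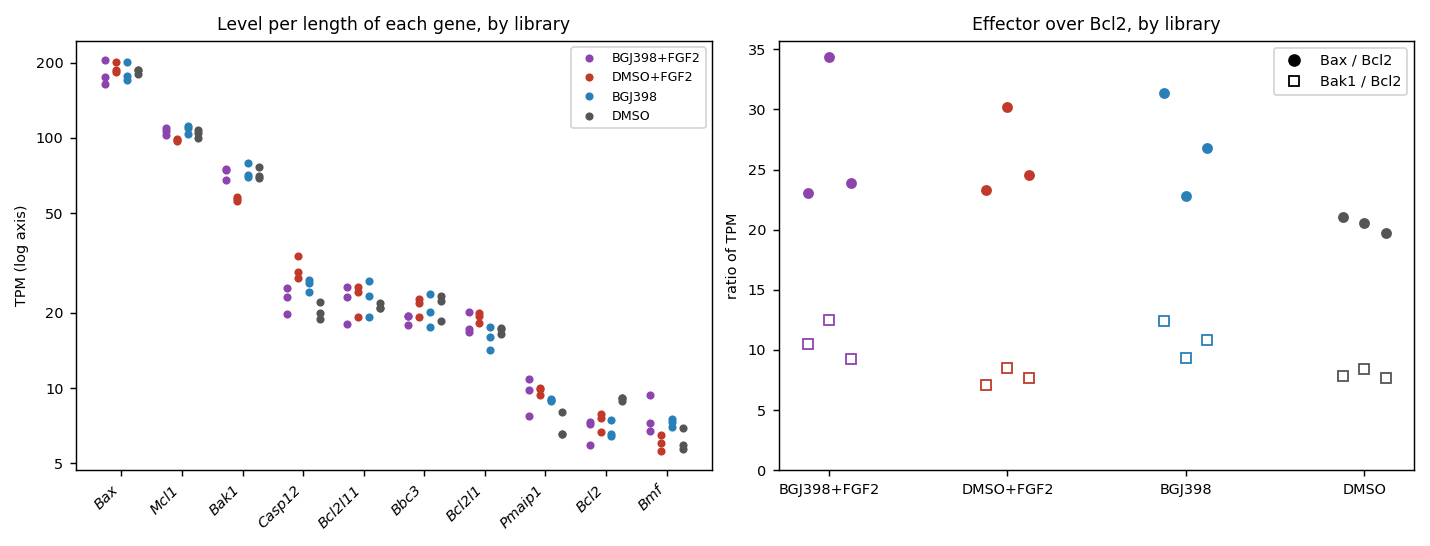
Left, TPM of each gene on a log axis, 1 point per library in 4 groups of 3; right, the TPM of Bax (filled circles) and Bak1 (open squares) divided by that of Bcl2 in the same library, on a linear axis from 0. Bax at 165 to 204 TPM lies above all other genes, and the 3 DMSO libraries have Bax over Bcl2 ratios of 19.7 to 21.1, below the other 9 libraries at 22.8 to 34.3.

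FGF2 without inhibitor changed 4 of the 10 genes by edgeR's quasi-likelihood test at an adjusted p under 0.05: Casp12, Pmaip1 and Bcl2l1 were higher and Bcl2 was lower in DMSO+FGF2 than in DMSO. Of all 12542 genes tested, 13.4% passed in this comparison. Because earlier results were known when the genes were listed, the shares over all genes are given here and below as a description. Libraries of the 2 groups did not overlap for 7 of the 10 genes, against 37.6% of all genes. The median log2 fold change of the 10 was 0.14, against −0.0037 over all genes. Under BGJ398, FGF2 changed 0 of the 10 genes and 0% of all genes by edgeR, with 1 of the 10 and 325 of all genes at an unadjusted p under 0.05; limma-voom called 0 genes and DESeq2 called 5. No overlap was seen for 1 of the 10 there, against 6.31% of all genes.

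BGJ398 without added FGF2 changed 1 of the 10, Bcl2, which was lower than in DMSO, against 0.327% of all genes. Libraries did not overlap for 5 of the 10, against 17.2% of all genes. In the presence of FGF2 the inhibitor changed 4 of the 10, with Bmf and Bak1 higher and Casp12 and Bcl2l1 lower in BGJ398+FGF2 than in DMSO+FGF2, against 22.2% of all genes; 5 of the 10 did not overlap, against 34.8%. The interaction (log2 FGF2 change under BGJ398 minus log2 FGF2 change in DMSO) passed for Casp12 and Pmaip1, 2 of the 10, against 4.24% of all genes. The comparisons share groups, so their calls are not independent of each other. The labels state triplicates without naming separate cultures, and a p-value therefore reflects how libraries of a group vary, some of which may be technical.

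**Figure D2:**
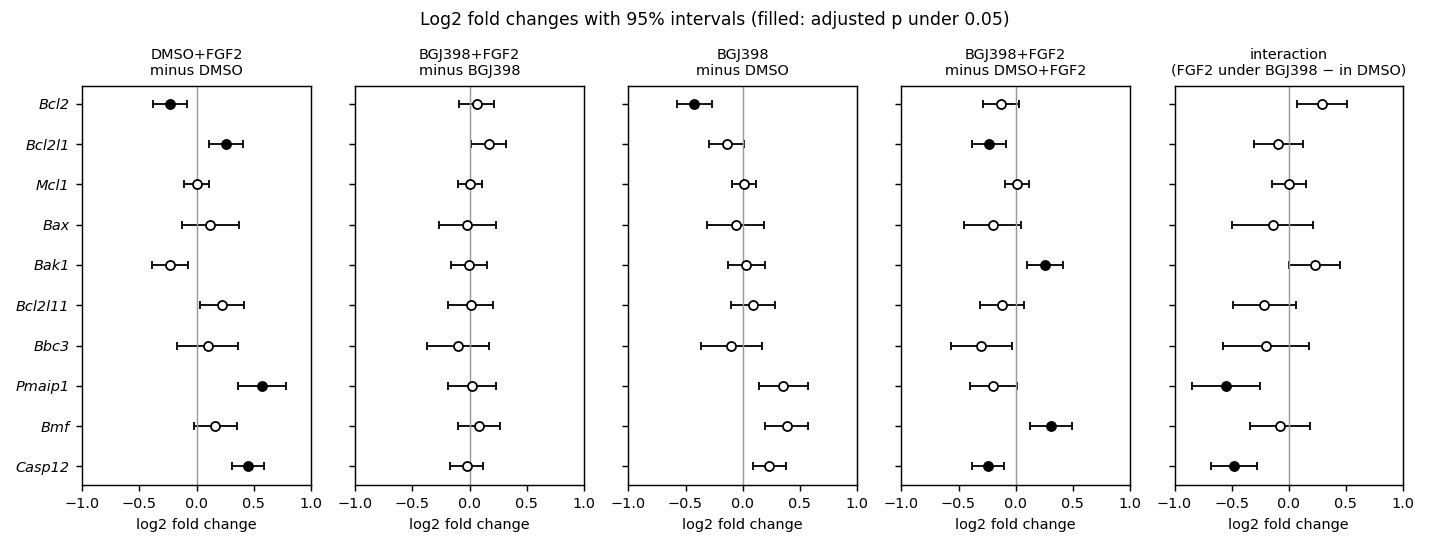
Log2 fold changes of the 10 genes (points) with 95% intervals (bars) in the 4 comparisons and the interaction, 3 libraries per group; filled points passed edgeR's quasi-likelihood test at an adjusted p under 0.05. Casp12 and Pmaip1 lie farthest to the right for FGF2 in DMSO at 0.45 and 0.58, all 10 intervals but that of Bcl2l1 include 0 for FGF2 under BGJ398, and Mcl1 lies within 0.02 of 0 in every panel.

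Among the survival genes, Bcl2 (ENSMUSG00000057329), the founding member of the family, was at its highest in untreated cells. Its level was 26.8, 24.3 and 26.6 CPM (counts scaled to library size and composition) in the BGJ398+FGF2 libraries, 29.8, 26.8 and 28.4 CPM in DMSO+FGF2, 23.9, 26.99 and 23.8 CPM in BGJ398 and 33.4, 33.6 and 33.0 CPM in DMSO. All 9 libraries that received FGF2, BGJ398 or both lay below the 3 DMSO libraries, which differed among themselves by less than 1 CPM. Bcl2 averaged 24.9 ± 1.83 CPM in BGJ398 and 33.3 ± 0.278 CPM in DMSO (SD, n = 3 each), a log2 fold change of −0.42 ± 0.07 (SE; edgeR adjusted p = 0.0261). FGF2 gave a smaller decrease, to 28.4 ± 1.52 CPM in DMSO+FGF2 against 33.3 CPM in DMSO, with a log2 fold change of −0.23 ± 0.07 (edgeR adjusted p = 0.0435). With the receptor inhibited, FGF2 gave 0.06 ± 0.07 (edgeR adjusted p = 1), and the interaction of 0.29 ± 0.10 did not pass (edgeR adjusted p = 0.136).

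Both Bcl2 calls were sensitive to single libraries. The decrease with BGJ398 did not pass without BGJ398 replicate 1 or 3 or without any 1 of the DMSO libraries (edgeR adjusted p 0.0869 to 0.163, log2 fold changes −0.43 to −0.39), and the decrease with FGF2 did not pass without DMSO+FGF2 replicate 2 or 3, BGJ398+FGF2 replicate 1, BGJ398 replicate 3 or any 1 DMSO library (0.0501 to 0.168, −0.24 to −0.20). Settings that ended the calls included length rescaling: neither passed with counts rescaled for transcript length (edgeR adjusted p = 0.0593 and 0.0909), and the second did not pass without a filter on low counts (0.0847). The decrease with FGF2 also did not pass without the 3 libraries that deviated together (−0.195, edgeR adjusted p = 0.0593). An antisense gene, D630008O14Rik, covers 6.09% of the exon bases of Bcl2. No reads were listed for it, which is also the case for a gene left out of the quantification. Whether any of its reads were counted under Bcl2 was not tested.

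Bcl2l1 (ENSMUSG00000007659), whose main product BCL-XL blocks BAX and BAK, was highest with FGF2 alone. It stood at 21.2, 22.6 and 20.3 CPM in BGJ398+FGF2, 24.3, 25.7 and 25.1 CPM in DMSO+FGF2, 20.03, 19.04 and 17.88 CPM in BGJ398 and 21.1, 20.5 and 21.2 CPM in DMSO. The DMSO+FGF2 libraries lay above all other 9, and the BGJ398 libraries lay below all other 9. The increase with FGF2 was 0.26 ± 0.07 on the log2 scale (25.0 ± 0.663 CPM in DMSO+FGF2 and 20.9 ± 0.384 CPM in DMSO, SD, n = 3 each; edgeR adjusted p = 0.0236). BGJ398 in the presence of FGF2 lowered it, with a log2 fold change of −0.23 ± 0.07 (21.4 ± 1.17 CPM in BGJ398+FGF2 against 25.0 CPM in DMSO+FGF2; edgeR adjusted p = 0.0301). Under BGJ398 the FGF2 libraries still lay above those without it, at 0.17 ± 0.07, which did not pass (edgeR adjusted p = 1, unadjusted p = 0.0323), and the interaction was −0.09 ± 0.10 with a 95% interval of −0.30 to 0.12 (edgeR adjusted p = 0.712). Bcl2l1 was the 1 gene of the 10 whose groups did not overlap for FGF2 under BGJ398.

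The FGF2 increase of Bcl2l1 did not pass without DMSO+FGF2 replicate 2 or 3 or any 1 DMSO library (edgeR adjusted p 0.0602 to 0.0934, log2 fold changes 0.24 to 0.27), and its decrease with BGJ398 did not pass without DMSO+FGF2 replicate 2 or 3 or BGJ398+FGF2 replicate 1 or 3 (0.071 to 0.104, −0.23 to −0.19). Neither passed without a filter on low counts (edgeR adjusted p = 0.0725 and 0.0797), and the decrease did not pass in a fit of only its 2 groups (0.0885). With counts rescaled for transcript length the log2 fold changes were 0.25 and −0.13 (edgeR adjusted p = 0.183 and 0.494).

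Mcl1 (ENSMUSG00000038612), which encodes a short-lived survival protein, was the second most abundant member per length and the steadiest. Its level was 208, 215 and 214 CPM in BGJ398+FGF2, 208, 215 and 208 CPM in DMSO+FGF2, 222, 201 and 211 CPM in BGJ398 and 214, 214 and 203 CPM in DMSO. All 4 groups overlapped. The log2 fold changes were 0.00 for FGF2 in DMSO (95% interval −0.11 to 0.11), 0.01 for FGF2 under BGJ398 (−0.10 to 0.11), 0.01 for BGJ398 without FGF2 (−0.10 to 0.11) and 0.01 for BGJ398 with FGF2 (−0.09 to 0.12), with an SE of 0.05 in each. The TPM scale divides by length and by the summed level of all transcripts. On it Mcl1 was at 107, 103 and 110 TPM in BGJ398+FGF2 and at 99.1, 97.0 and 97.8 TPM in DMSO+FGF2. It was at 103.3 to 111.8 TPM in BGJ398 and at 99.89 to 107.5 TPM in DMSO. The DMSO+FGF2 libraries thus lay below those of every other group on this scale, DMSO included, unlike in CPM.

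**Figure D3:**
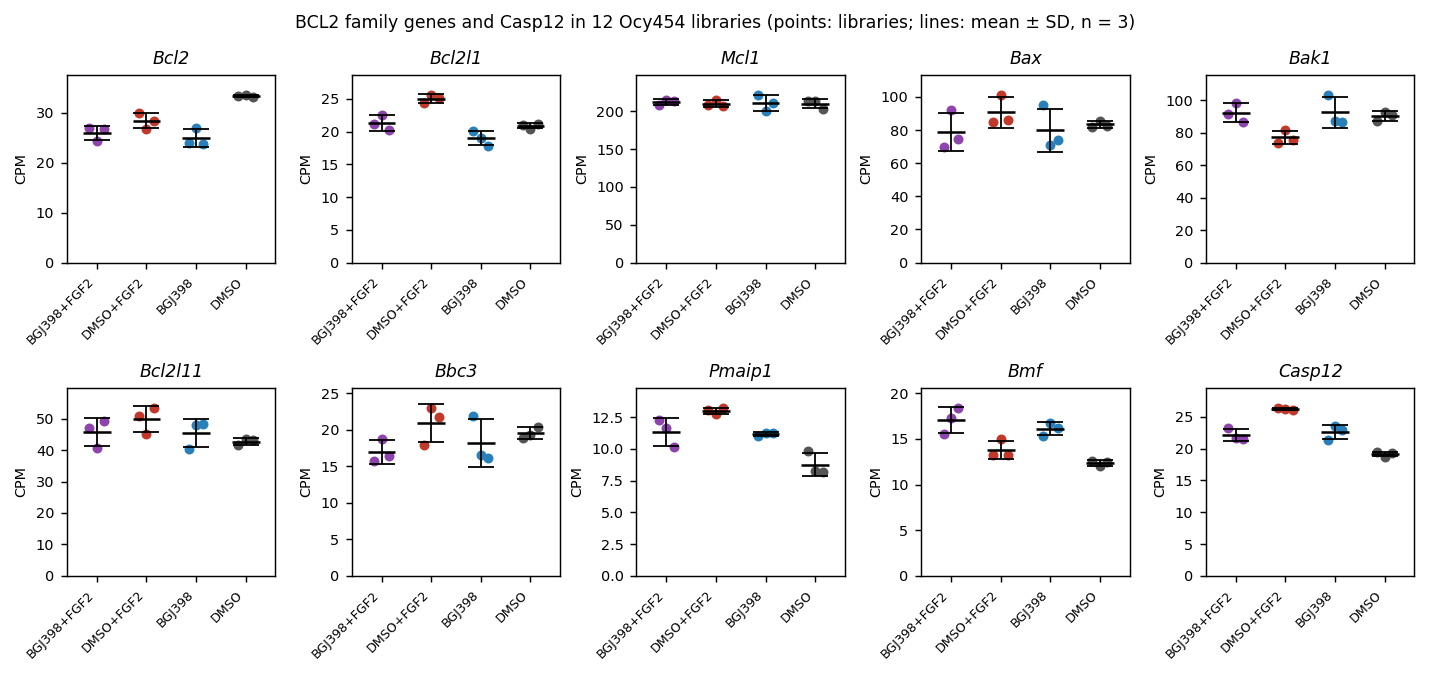
CPM of the 10 genes in each of the 12 libraries (points), with the mean and SD of 3 libraries per group (lines), on axes from 0. Casp12 and Pmaip1 are highest in DMSO+FGF2 and lowest in DMSO, Bcl2 is highest in DMSO, Bak1 is lowest in DMSO+FGF2, and the 4 groups overlap for Mcl1.

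The effectors behaved unlike each other. Bak1 (ENSMUSG00000057789), whose protein BAK sits in the outer mitochondrial membrane, was at 91.7, 98.3 and 86.9 CPM in BGJ398+FGF2, 73.9, 81.8 and 75.5 CPM in DMSO+FGF2, 103, 87.2 and 86.9 CPM in BGJ398 and 87.3, 93.1 and 90.8 CPM in DMSO. The 3 DMSO+FGF2 libraries lay below all other 9, which overlapped one another. BGJ398 raised Bak1 in the presence of FGF2, to 92.3 ± 5.75 CPM in BGJ398+FGF2 against 77.1 ± 4.16 CPM in DMSO+FGF2 (SD, n = 3 each), a log2 fold change of 0.26 ± 0.07 (edgeR adjusted p = 0.0229). The FGF2 difference in DMSO was −0.23 ± 0.07 and missed the threshold (edgeR adjusted p = 0.0560).

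For Bak1, the call for BGJ398 with FGF2 was lost without DMSO+FGF2 replicate 1 or 3 or BGJ398+FGF2 replicate 1 or 2 (edgeR adjusted p 0.0518 to 0.0822, log2 fold changes 0.21 to 0.27), whereas the FGF2 decrease in DMSO passed without BGJ398+FGF2 replicate 2 or BGJ398 replicate 1 (0.0294 and 0.0201). That decrease also passed with DESeq2 (adjusted p = 0.0339), with scaling by library totals (0.0248), without a filter (0.0375) and in a fit of its 2 groups (0.0107). Without all 3 libraries that deviated together, FGF2 in DMSO gave −0.28 (edgeR adjusted p = 0.000420), BGJ398 with FGF2 gave 0.26 (0.00124) and the interaction gave 0.31 (0.00822), against 0.23 ± 0.10 (0.289) with all 12. Bak1 overlaps the oppositely oriented Ggnbp1, which is listed under 2 identifiers that cover 7.35% and 18.2% of its exon bases, and the use of strand in quantification is not given in the sources used here. Those identifiers held 809 and 504 reads over the 12 libraries, against 23352 for Bak1.

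Bax (ENSMUSG00000003873), whose protein moves from the cytosol to mitochondria when activated, was the noisiest of the abundant members. It was at 70.0, 92.1 and 74.7 CPM in BGJ398+FGF2, 84.7, 101.4 and 86.2 CPM in DMSO+FGF2, 94.97, 71.1 and 73.7 CPM in BGJ398 and 82.1, 85.6 and 82.5 CPM in DMSO. The highest value of each of the first 3 groups came from 1 of the 3 deviating libraries, and all pairs of groups compared overlapped. No Bax comparison passed with all 12 libraries, where the largest was −0.20 ± 0.12 for BGJ398 with FGF2 (edgeR adjusted p = 0.241). In the fit without the 3 libraries, which held the highest Bax of their groups, Bax had −0.24 for BGJ398 with FGF2 (edgeR adjusted p = 0.00190). It had −0.20 for BGJ398 without FGF2 (edgeR adjusted p = 0.0171). Leaving out BGJ398+FGF2 replicate 2 alone gave −0.33 for BGJ398 with FGF2 (edgeR adjusted p = 0.0389). Bax shares 12.2% of its exon bases with Gm45808, which had 2 reads over the 12 libraries.

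Of the BH3-only genes, Pmaip1 (ENSMUSG00000024521) gave the largest fold change among the 10. The gene encodes NOXA, which binds MCL1, and it was at 12.3, 11.6 and 10.1 CPM in BGJ398+FGF2, 13.1, 12.7 and 13.2 CPM in DMSO+FGF2, 11.03, 11.28 and 11.22 CPM in BGJ398 and 9.81, 8.28 and 8.17 CPM in DMSO. The DMSO+FGF2 libraries lay above all other 9 and the DMSO libraries below all other 9. FGF2 raised it 1.49-fold, to 13.005 ± 0.244 CPM in DMSO+FGF2 against 8.75 ± 0.916 CPM in DMSO (SD, n = 3 each), a log2 fold change of 0.58 ± 0.10 (edgeR adjusted p = 0.00143). Under BGJ398 the FGF2 change was 0.02 ± 0.10, and the interaction was −0.55 ± 0.14 (edgeR adjusted p = 0.0392). BGJ398 without FGF2 gave 0.36 ± 0.10 with no overlap between libraries and did not pass (edgeR adjusted p = 0.229), nor did BGJ398 with FGF2 at −0.20 ± 0.10 (0.173). The FGF2 increase passed in all 22 alternative settings and left-out libraries tried (edgeR, DESeq2 or limma adjusted p 2.36e-05 to 0.0117), and the interaction in 8 of 21. The interaction was lost without any 1 of the DMSO+FGF2 or BGJ398 libraries, BGJ398+FGF2 replicate 3, or DMSO replicate 2 or 3 (edgeR adjusted p 0.0672 to 0.116, log2 differences −0.56 to −0.48). Other settings that ended it included length-scaled TPM (−0.45, edgeR adjusted p = 0.202), no filter (0.0606) and library totals (0.0534).

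Bmf (ENSMUSG00000040093), whose protein is held at the cytoskeleton and is linked to death on loss of attachment, had its highest levels in the groups that received BGJ398. Its level was 15.5, 17.3 and 18.4 CPM in BGJ398+FGF2, 13.2, 14.96 and 13.2 CPM in DMSO+FGF2, 15.4, 16.8 and 16.2 CPM in BGJ398 and 12.5, 11.98 and 12.5 CPM in DMSO. All 6 BGJ398 libraries lay above all 6 libraries without it. In the presence of FGF2 the increase was 0.31 ± 0.09 on the log2 scale (17.1 ± 1.45 CPM in BGJ398+FGF2 and 13.8 ± 1.01 CPM in DMSO+FGF2, SD, n = 3 each; edgeR adjusted p = 0.0213), and without FGF2 the difference was 0.39 ± 0.09 (16.1 ± 0.709 CPM in BGJ398 and 12.3 ± 0.304 CPM in DMSO) and did not pass (edgeR adjusted p = 0.0980). The interaction was −0.08 ± 0.12, with a 95% interval of −0.34 to 0.18. Without DMSO+FGF2 replicate 1 or 3 or BGJ398+FGF2 replicate 3 the first of these did not pass (edgeR adjusted p 0.0726 to 0.083, 0.25 to 0.28), nor did it with length-scaled TPM (0.131) or in a fit of its 2 groups (0.0802). The second did pass without the 3 deviating libraries, at 0.42 (edgeR adjusted p = 0.0198), and by DESeq2 (adjusted p = 0.0317). Of the libraries left out, BGJ398 replicate 1 had the lowest Bmf of its group.

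Bcl2l11 (ENSMUSG00000027381) encodes BIM, a strong activator of BAX and BAK that ERK phosphorylation marks for degradation and FOXO factors induce. It was at 47.2, 40.8 and 49.2 CPM in BGJ398+FGF2, 50.8, 45.3 and 53.4 CPM in DMSO+FGF2, 40.3, 47.9 and 48.3 CPM in BGJ398 and 41.5, 43.5 and 43.2 CPM in DMSO. The DMSO+FGF2 libraries lay above the 3 DMSO libraries, and the other groups overlapped both. None of its tests passed with 12 libraries: FGF2 in DMSO gave 0.22 ± 0.09 (edgeR adjusted p = 0.129) and BGJ398 with FGF2 gave −0.12 ± 0.09 (0.362). Without the 3 deviating libraries FGF2 in DMSO gave 0.28 (edgeR adjusted p = 0.00154) and the interaction gave −0.28 (0.0407). A fit of only the DMSO+FGF2 and DMSO libraries also took FGF2 in DMSO under the threshold (edgeR adjusted p = 0.0394).

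Bbc3 (ENSMUSG00000002083) encodes PUMA, a BH3-only protein that p53 induces. It was at 15.7, 18.8 and 16.4 CPM in BGJ398+FGF2, 18.01, 23.01 and 21.74 CPM in DMSO+FGF2, 22.0, 16.5 and 16.2 CPM in BGJ398 and 18.9, 19.3 and 20.4 CPM in DMSO. All pairs of groups compared overlapped. No comparison passed, the largest being −0.30 ± 0.12 for BGJ398 with FGF2 (edgeR adjusted p = 0.101). That difference passed without DMSO+FGF2 replicate 1 or without BGJ398 replicate 1 (edgeR adjusted p = 0.0485 and 0.0437), and was −0.31 without the 3 deviating libraries (0.0375).

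Casp12 (ENSMUSG00000025887), which in rodents encodes a caspase associated with endoplasmic reticulum stress, had the smallest p of the 10 for FGF2 in DMSO. It was at 23.3, 21.7 and 21.5 CPM in BGJ398+FGF2, 26.4, 26.3 and 26.0 CPM in DMSO+FGF2, 21.3, 23.6 and 22.9 CPM in BGJ398 and 19.4, 18.8 and 19.4 CPM in DMSO. The libraries fell in 3 tiers, with DMSO+FGF2 above all others, DMSO below all others, and the 6 BGJ398 libraries between and overlapping. FGF2 raised it 1.37-fold, to 26.2 ± 0.196 CPM in DMSO+FGF2 against 19.2 ± 0.365 CPM in DMSO (SD, n = 3 each), a log2 fold change of 0.45 ± 0.06 (edgeR adjusted p = 0.000408). With the receptors inhibited the FGF2 difference was −0.03 ± 0.07 (22.2 ± 0.952 CPM in BGJ398+FGF2 and 22.6 ± 1.14 CPM in BGJ398), and the interaction was −0.48 ± 0.09 (edgeR adjusted p = 0.00926).

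BGJ398 lowered Casp12 in the presence of FGF2, with a log2 fold change of −0.24 ± 0.06 (22.2 CPM in BGJ398+FGF2 against 26.2 CPM in DMSO+FGF2; edgeR adjusted p = 0.0168). Without added FGF2 the sign was the other way, at 0.24 ± 0.07 (22.6 CPM in BGJ398 against 19.2 CPM in DMSO), with no overlap between libraries, and did not pass (edgeR adjusted p = 0.231). The FGF2 increase passed in all 22 alternatives (adjusted p 9.97e-07 to 0.00398) and the interaction in all 21 (0.00149 to 0.0342) over edgeR, DESeq2 and limma. BGJ398 with FGF2 missed the threshold without DMSO+FGF2 replicate 2 or BGJ398+FGF2 replicate 3 (edgeR adjusted p 0.0512 to 0.0581, −0.24 to −0.22), without a filter (0.0553) and in a fit of its 2 groups (0.0618). BGJ398 without FGF2 passed without the 3 deviating libraries, at 0.28 (edgeR adjusted p = 0.0469). Of the libraries left out, BGJ398 replicate 1 had the lowest Casp12 of its group. No 31-base stretch of the Casp12 transcripts occurs in another annotated gene, its relatives Casp1 and Casp4 included.

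Ratios within a library put these levels side by side, as a description without a test. Bax over Bcl2 on the TPM scale was 23.0, 34.3 and 23.9 in BGJ398+FGF2, 23.3, 30.2 and 24.6 in DMSO+FGF2, 31.3, 22.8 and 26.8 in BGJ398 and 21.1, 20.6 and 19.7 in DMSO. The 3 DMSO libraries had the lowest ratios of the 12. Bak1 over Bcl2 was 10.5, 12.5 and 9.26 in BGJ398+FGF2, 7.07, 8.52 and 7.69 in DMSO+FGF2, 12.4, 9.36 and 10.8 in BGJ398 and 7.80, 8.40 and 7.69 in DMSO. Here the 6 libraries with BGJ398 lay above the 6 without it, and the 2 groups without the inhibitor overlapped. Bcl2l1 over Bcl2 was 2.40, 3.39 and 2.30 in BGJ398+FGF2, 2.47, 2.73 and 2.64 in DMSO+FGF2, 2.22, 2.36 and 2.43 in BGJ398 and 1.85, 1.89 and 1.90 in DMSO, again lowest in DMSO. The 3 ratios share Bcl2 as the divisor.

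Transcript estimates showed which forms made up each gene, and no transcript was tested. Mcl1 and Bcl2 were almost entirely 1 transcript, Mcl1-201 at 99.0% to 100% and Bcl2-201 at 91.4% to 98.3% of the gene's TPM in single libraries, and Pmaip1-201 held 62.6% to 100%. Bax was mostly Bax-201 at 78.1% to 80.4% of group mean TPM with Bax-203 at 13.2% to 14.9%, and Bcl2l11 was mostly Bcl2l11-205 at 64.3% to 69.7% with Bcl2l11-203 at 7.09% to 13.1%. The reads of Bak1 (Bak1-202 and Bak1-201), Bbc3 (Bbc3-201, Bbc3-202 and Bbc3-203) and Bmf (Bmf-201 and Bmf-205) were split between transcripts, 1 of which was listed at 0 in some libraries for each gene.

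For Bcl2l1, the transcript Bcl2l1-202 had 3.88, 6.27 and 3.25 TPM in BGJ398+FGF2, 7.54, 9.52 and 6.40 TPM in DMSO+FGF2, 5.07, 4.77 and 3.35 TPM in BGJ398 and 4.89, 4.34 and 1.79 TPM in DMSO. The DMSO+FGF2 libraries were the 3 highest of the 12. Bcl2l1-201 had 11.9, 7.77 and 11.8 TPM in BGJ398+FGF2, 9.10, 6.71 and 10.6 TPM in DMSO+FGF2, 8.69, 8.54 and 9.53 TPM in BGJ398 and 10.3, 9.77 and 13.2 TPM in DMSO. The BGJ398 libraries lay below the DMSO libraries, and every other pair of groups overlapped. Bcl2l1-202 thus took a mean of 24.4% of the gene's TPM in BGJ398+FGF2, 41.0% in DMSO+FGF2, 27.97% in BGJ398 and 21.8% in DMSO.

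All 5 Casp12 transcripts are drawn, a choice made after their values were seen. The full protein-coding transcript Casp12-201, of 2649 bases, had 15.8 ± 1.80 TPM in BGJ398+FGF2, 16.9 ± 3.31 TPM in DMSO+FGF2, 15.4 ± 1.45 TPM in BGJ398 and 16.1 ± 0.534 TPM in DMSO (SD, n = 3 each), and the groups overlapped. The shorter coding transcript Casp12-204, of 1065 bases, had 4.43, 4.75 and 3.55 TPM in BGJ398+FGF2, 11.2, 6.03 and 6.63 TPM in DMSO+FGF2, 7.54, 6.67 and 8.21 TPM in BGJ398 and was listed at 0, 2.55 and 3.82 TPM in DMSO. Its values in DMSO+FGF2 and in BGJ398 lay above all of those in DMSO, and its spread among libraries of 1 group was wide. Casp12-202, annotated with a retained intron, averaged 1.82 TPM in BGJ398+FGF2, 3.54 TPM in DMSO+FGF2, 1.37 TPM in BGJ398 and 1.19 TPM in DMSO, with overlap. Reads of the transcripts are divided by estimation where they share exons, so these shares carry an error that the deposited values do not give.

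**Figure D4:**
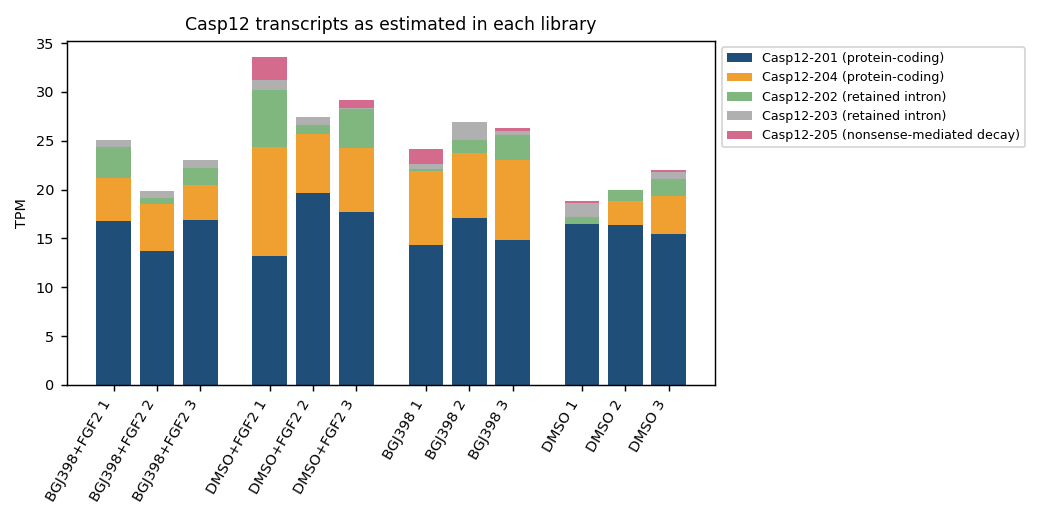
Estimated TPM of the 5 annotated Casp12 transcripts, stacked, in each of the 12 libraries; the height of a bar is the TPM of the gene. The part of Casp12-201 has group means of 15.4 to 16.9 TPM, and the part of Casp12-204 is smallest in DMSO at a mean of 2.12 TPM.

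The other genes of the pathway were read from 9 lists of 61 genes, of which 55 had enough reads. Among the remaining survival genes Bcl2a1a, Bcl2a1b, Bcl2a1d and Bcl2l10 had 0 reads, and of the BH3-only genes Bik had 2 and Hrk had 3 over the 12 libraries. Bcl2l2 (BCL-W), the effector relative Bok, and the BH3-only genes Bad and Bid did not pass in any comparison. Bok averaged 149 ± 14.3 CPM in BGJ398+FGF2, 138 ± 12.3 CPM in DMSO+FGF2, 143 ± 19.1 CPM in BGJ398 and 128 ± 4.49 CPM in DMSO (SD, n = 3 each). By edgeR, 9 of the 55 changed with FGF2 in DMSO and 17 with BGJ398 in the presence of FGF2, against 13.4% and 22.2% of all genes; the first is close to the share over all genes. FGF2 under BGJ398 changed 0 of the 55 and 0% of all genes by edgeR. An unadjusted p under 0.05 was seen there for 1 of the 55 and for 325 of all 12542 genes. BGJ398 without FGF2 changed 0 of the 55 and 0.327% of all genes, with 7 of the 55 and 1037 of all genes at an unadjusted p under 0.05.

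Casp4, an inflammatory caspase related to Casp12, rose with FGF2 in DMSO by 0.46 ± 0.10 on the log2 scale (12.2 ± 0.876 CPM in DMSO+FGF2 and 8.89 ± 0.479 CPM in DMSO, SD, n = 3 each; edgeR adjusted p = 0.00663) and fell with BGJ398 in the presence of FGF2 by 0.50 ± 0.10 (8.70 ± 0.903 CPM in BGJ398+FGF2 and 12.2 ± 0.876 CPM in DMSO+FGF2; 0.00324). Casp1, the other inflammatory caspase, did not pass in either (0.37 and −0.34). Of 11 apoptosome and IAP genes 0 changed with FGF2 in DMSO by edgeR, against 13.4% of all genes. An unadjusted p under 0.05 was seen for 0 of the 11, against 3277 of all 12542 genes. With BGJ398 in the presence of FGF2, 2 of the 11 rose, against 22.2% of all genes that passed there. These were Cycs, which encodes cytochrome c, by 0.39 ± 0.10 and Diablo, which encodes the IAP antagonist SMAC, by 0.21 ± 0.07 (edgeR adjusted p = 0.0139 and 0.0444).

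Of 7 death receptor genes Cflar was the 1 that rose with FGF2 in DMSO, a share near the 13.4% of all genes, and 3 fell with BGJ398 in the presence of FGF2, against 22.2% of all genes. Cflar, which encodes the caspase-8 inhibitor FLIP, was at 39.3 ± 3.35 CPM in BGJ398+FGF2, 53.9 ± 3.46 CPM in DMSO+FGF2 and 41.9 ± 1.72 CPM in DMSO (SD, n = 3 each), with log2 fold changes of 0.36 ± 0.07 for FGF2 (edgeR adjusted p = 0.00512) and −0.45 ± 0.07 for BGJ398 with FGF2 (0.000819). The kinase Ripk1 and the TNF receptor Tnfrsf1a both changed by −0.19 with BGJ398 in the presence of FGF2 (edgeR adjusted p = 0.0224 and 0.0326). Among 8 p53 genes the cell cycle inhibitor Cdkn1a rose with FGF2 in DMSO by 0.24 ± 0.08 (edgeR adjusted p = 0.0486), and Perp, a membrane protein that p53 induces, rose with BGJ398 in the presence of FGF2 by 0.75 ± 0.15 (8.77 ± 0.746 CPM in BGJ398+FGF2 and 5.21 ± 0.657 CPM in DMSO+FGF2; 0.00308). Trp53 itself passed in neither. Of the 8 p53 genes 1 passed in each of these comparisons, against 13.4% and 22.2% of all genes.

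Of 11 genes that link endoplasmic reticulum stress to apoptosis, 3 rose and 0 fell with FGF2 in DMSO, where 13.4% of all genes passed, and the list median was 0.24 against −0.0037 for all genes. With BGJ398 in the presence of FGF2, where 22.2% of all genes passed, 5 of the 11 fell and 0 rose, with a median of −0.15 against 0.0046. Hspa5, the chaperone BiP, was at 766 ± 53.8 CPM in BGJ398+FGF2, 1299 ± 113 CPM in DMSO+FGF2, 731 ± 17.97 CPM in BGJ398 and 719 ± 51.2 CPM in DMSO (SD, n = 3 each). It changed by 0.85 ± 0.07 with FGF2 in DMSO (edgeR adjusted p = 6.34e-06) and by −0.76 ± 0.07 with BGJ398 in the presence of FGF2 (1.17e-05), and the interaction was −0.79 ± 0.10 (0.000727). Herpud1, a degradation factor of the endoplasmic reticulum, and Ppp1r15a, a phosphatase subunit that restores translation, were the other 2 that rose with FGF2, by 0.45 ± 0.09 and 0.40 ± 0.09 (edgeR adjusted p = 0.00578 and 0.00793). With BGJ398 in the presence of FGF2 they changed by −0.40 ± 0.09 and −0.43 ± 0.09 (0.00822 and 0.00432), and the stress sensor Ern1 by −0.50 ± 0.12 (0.00973). The pro-apoptotic factor Ddit3, or CHOP, was the fifth at −0.52 ± 0.14 (0.0164), and it had 0.43 with FGF2 in DMSO, which did not pass (0.0568).

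Of 12 genes of the FOXO and ERK inputs 2 rose and 1 fell with FGF2 in DMSO, where 13.4% of all genes passed. Pim1, a survival kinase that phosphorylates BAD, was at 32.7 ± 1.34 CPM in BGJ398+FGF2, 39.9 ± 3.43 CPM in DMSO+FGF2, 31.3 ± 1.84 CPM in BGJ398 and 24.8 ± 2.73 CPM in DMSO (SD, n = 3 each). Its FGF2 change was 0.68 ± 0.09 (edgeR adjusted p = 0.000171) and its interaction −0.62 ± 0.13 (0.0123). Mapk3, which encodes ERK1, rose with FGF2 by 0.36 ± 0.06 (edgeR adjusted p = 0.00210) and Foxo1 fell by 0.31 ± 0.09 (0.0298). With BGJ398 in the presence of FGF2, where 22.2% of all genes passed, 4 fell and 1 rose: Dusp6, a phosphatase of ERK, changed by −0.80 ± 0.13, Mapk3 by −0.37 ± 0.06, Pim1 by −0.28 ± 0.09 and Foxo1 by 0.51 ± 0.09 (edgeR adjusted p = 0.000739, 0.00113, 0.0335 and 0.00111).

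**Figure D5:**
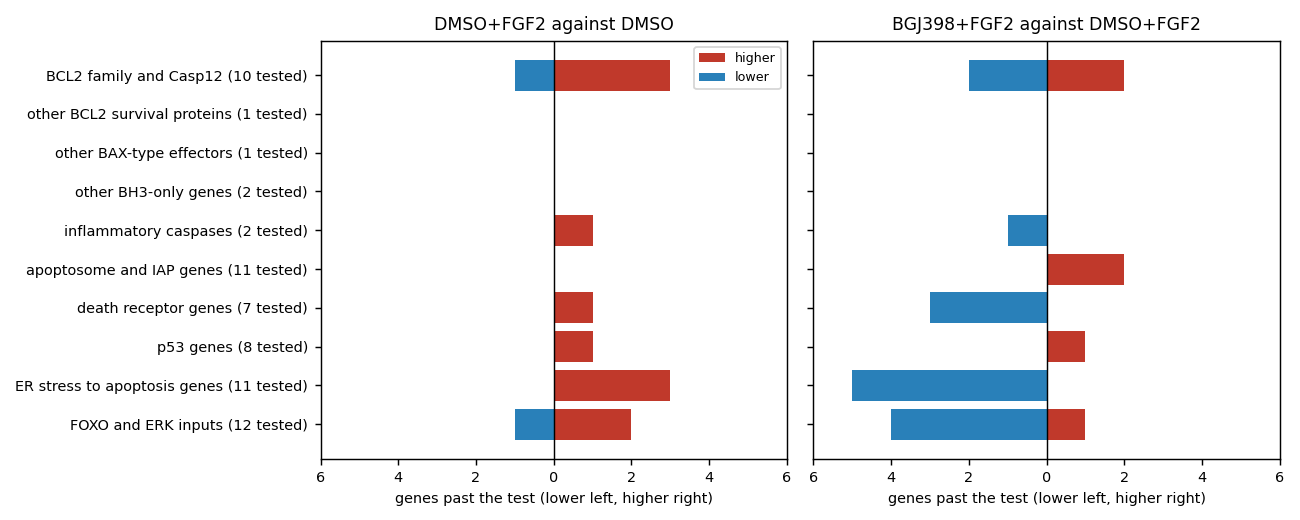
Number of genes past edgeR's quasi-likelihood test (adjusted p under 0.05) in the described set and in 9 lists of other apoptosis and regulator genes, higher to the right of 0 and lower to the left, for DMSO+FGF2 against DMSO and BGJ398+FGF2 against DMSO+FGF2. The endoplasmic reticulum stress list has 3 higher of 11 tested in the first and 5 lower in the second, and 13.4% and 22.2% of all genes passed.

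For the 6 genes that passed in at least 1 comparison, the 3 protein-coding genes with the most similar pattern over the 12 libraries were found by the root mean square difference of gene-centered log2 CPM. Casp12 was nearest to Tgfbr2 (0.0650), Gdpd1 (0.0669) and Gprc5a (0.0685), against a median difference of 0.213 to all protein-coding genes. Pmaip1 was nearest to Casp12 (0.0962), followed by Dusp3 (0.106) and Rnase4 (0.109), against a median of 0.261. Bcl2 was nearest to Mmp28 (0.0668), Ccnd2 (0.0726) and Sqle (0.0759), against 0.223, and Bcl2l1 to Hsdl1 (0.0533), Ugdh (0.0558) and Map2k1 (0.0561), against 0.203. Bak1 was nearest to Adprh (0.0386), Crtap (0.0403) and Fam69b (0.0405), against 0.189, and Bmf to Cox19 (0.0996), Zfp874a (0.10) and Ube2d1 (0.105), against 0.241. The measure favors genes with small differences and high read counts, and all genes share the same 12 libraries.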

How the data were processed

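Polyadenylated RNA was sequenced from 12 Ocy454 libraries. The submitters' processing notes name Salmon, without a version, and genome build GRCm39. The deposited columns hold, per the file headers, expected counts (estimated reads, unscaled), TPM (divided by length and scaled within a library by the authors) and effective lengths in bases for each transcript. Strandedness and bias settings are not given in these sources. Of 116178 transcripts, 114656 were matched by identifier to GENCODE M21 (35214 genes); the other 1522, with 0.499% to 0.641% of reads, were left out. Expected counts were added up by gene, then rounded.

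The test was edgeR 4.0.16 (R 4.3.3): filterByExpr (12542 genes), TMM scaling, the quasi-likelihood test on 4 group means over 12 libraries (8 residual degrees of freedom, biological coefficient of variation 8.49%), 2-sided, with Benjamini-Hochberg adjustment over all genes and a threshold of 0.05. An SE is the absolute log2 fold change over the square root of F. Alternatives were DESeq2 1.42.0, limma-voom (limma 3.58.1), other scalings and filters, length-scaled TPM, a fit of the 2 groups compared, a replicate block and leaving out each library. Procedures were tested on simulated counts. Replicate numbers gave no clear sign of pairing the libraries, which groups of 3 cannot exclude. Libraries of a group differed by 3.24 to 25.5 times the Poisson chi-square per degree of freedom, so none was a duplicate.

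The 10 genes and the lists were chosen with earlier results of these data known. A list of executioner and initiator caspases is not reported here. The rule named all 10 genes, up to 4 called genes of each list with the smallest p, the 3 genes most alike in pattern, and transcripts with at least 10% of a gene's TPM. Bok, Casp1, Trp53 and Ddit3 were named after their values were seen. Promoter windows came from RefSeq (GRCm38.p6), a build other than that of the files, and were matched by symbol for 9 of the 10 genes.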

Additional observations from a re-analysis of the deposited data

Results flagged for a closer look

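For 2 of the 10 genes and 2 of the 55 other pathway genes the effect of FGF2 differed between cells with and without the inhibitor, against 4.24% of all genes, by edgeR's quasi-likelihood test of the interaction with adjustment over all 12542 genes. The interaction, FGF2 change under BGJ398 minus FGF2 change in DMSO, was −0.48 on the log2 scale for Casp12 (edgeR adjusted p = 0.00926) and −0.55 for Pmaip1 (0.0392). It was −0.79 for Hspa5 (edgeR adjusted p = 0.000727) and −0.62 for Pim1 (0.0123). In these 4 genes the FGF2 change in DMSO was positive and the FGF2 change under BGJ398 did not pass. Among the marker genes 5 of 7 osteoblast markers passed this test with a positive interaction, and Pdpn and Cd68 with a negative one (−0.49 and −1.83, edgeR adjusted p = 0.0250 and 0.00478). Groups of 3 libraries are too small for a test of single outlying libraries.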

How the results depend on the processing

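Across 1090 values for single genes of the set under the alternatives, 58 lost and 20 gained the threshold. No value that passed under either setting changed sign, and 50 that passed under neither did, such as Bax for FGF2 under BGJ398 (−0.02, and 0.12 without BGJ398 replicate 1) and the interaction of Bmf (−0.08, and 0.07 with length-scaled TPM). The number called of the set was 4 for FGF2 in DMSO, 0 for FGF2 under BGJ398, 1 for BGJ398 without FGF2, 4 for BGJ398 with FGF2 and 2 for the interaction. In that order it ranged over 2 to 5, 0 to 0, 0 to 1, 1 to 5 and 1 to 2 when 1 library was left out, and the counts over all genes (1680, 0, 41, 2782 and 532) over 1018 to 2256, 0 to 1, 9 to 104, 1948 to 3345 and 328 to 956. With DESeq2, 5 genes were called for FGF2 under BGJ398, 149 for BGJ398 without FGF2 (2 of the set) and 821 for the interaction. Scaling by library totals left 1 of the set in the interaction. Without a filter on low counts 6 genes were called for FGF2 under BGJ398 and 83 for BGJ398 without FGF2, with 2 of the set for BGJ398 with FGF2 and 1 in the interaction. Length-scaled TPM gave 2 of the set for FGF2 in DMSO, 0 of the set and 12 genes for BGJ398 without FGF2, 2 of the set and 1815 genes for BGJ398 with FGF2, and 1 of the set and 350 genes for the interaction. A fit of only the groups compared gave 1 gene for FGF2 under BGJ398, 64 for BGJ398 without FGF2 and 1794 for BGJ398 with FGF2, with 1 of the set in the last. The cause of these changes was not tested. Same-numbered libraries correlated in their deviations at −0.146 to 0.239, and 2 of 18 pairs exceeded 0.1. Libraries of other numbers correlated at −0.24 to 0.179. The numbers thus gave no clear sign of pairing, which groups of 3 libraries cannot exclude. With the replicate block 21 genes and 0 of the set were called for BGJ398 without FGF2 and 1 of the set in the interaction. The calls lost under the block were those of Bcl2 for BGJ398 without FGF2 and for FGF2 in DMSO (edgeR adjusted p = 0.0656 and 0.0708) and of Pmaip1 in the interaction (0.0533). Leaving out the 3 libraries that deviated together, an alternative chosen after seeing the data, gave 2611 genes for FGF2 in DMSO, 4 for FGF2 under BGJ398, 730 for BGJ398 without FGF2 (4 of the set) and 1038 for the interaction (4 of the set), and the decrease of Bcl2 with FGF2 then missed the threshold (edgeR adjusted p = 0.0593). That fit leaves 9 libraries in groups of 2 or 3. The SE of a log2 change was 0.10 for Pmaip1, the least read gene with 194 to 334 reads per library, and 0.12 for Bax, with 1412 to 2379, so read number alone did not order the errors.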
